A study of Mus musculus with 9 samples.

Results

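The 10 genes described here encode the main parts of TGF-beta signalling in cultured mouse podocytes: the ligands Tgfb1, Tgfb2, Tgfb3 and Inhba, the latency protein Ltbp1, the receptors Tgfbr1, Tgfbr2 and Tgfbr3, and the SMADs Smad3 and Smad7. They were taken by name from the 22180 genes of the deposited value table. The members and the lists of related genes were chosen with earlier results of these data known. Counts set beside shares of all genes therefore describe these genes and test nothing. All 10 were found, each on 1 probe set with a single gene symbol. Podocytes form the outer layer of the kidney's filtration barrier, and those used here had been differentiated for 11 days at 37 °C in culture. The 9 arrays, 3 per group, held RNA from cells treated with the vehicle DMSO, with 2.5 µM thapsigargin, or with both 2.5 µM thapsigargin and 10 µM forskolin (the combined group). Treatment lasted 16 hours. Thapsigargin blocks the SERCA calcium pump and so causes stress in the endoplasmic reticulum, while forskolin raises cAMP by activating adenylyl cyclase. No group received forskolin alone, so each forskolin difference is one in the presence of thapsigargin. The labels give no cell line or genotype. They number biological replicates without naming separate cultures or passages, so the spread behind each p-value may be partly technical.

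TGF-beta ligands are secreted in a latent complex, in which the ligand is held by its own propeptide and by a latent TGF-beta binding protein that anchors it to the matrix. Once released, a ligand brings together a type II receptor and a type I receptor, and the type I receptor phosphorylates SMAD2 and SMAD3, which enter the nucleus with SMAD4. In the glomerulus this pathway is known for its link to matrix deposition, loss of podocytes and scarring.

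Thapsigargin lowered 7 of the 10 genes: the 3 TGF-beta ligands Tgfb1, Tgfb2 and Tgfb3, the receptors Tgfbr2 and Tgfbr3, and both SMADs. Of all genes tested, 16.9% were called lower in this comparison, 18.2% higher and 35% in either direction. All genes include those of low signal, while 9 of the 10 members lay above the upper quartile of every DMSO array. Of the 13530 genes with a group mean above the median of all values, 5.84, limma called 3832 lower and 4237 higher. The p-values of that set were adjusted within it, and all 10 members belong to it. The fall was at least 1 on the log2 scale for Tgfb1, Tgfb3 and Tgfbr3, 3 of 10, and for 2.94% of all genes. The median log2 change of the 10 genes was -0.37, against -0.04 over all genes. Adding forskolin lowered Tgfb2, Tgfbr2 and Ltbp1, 3 of 10, of which Ltbp1 was not called with thapsigargin alone. In the forskolin comparison 4.17% of all genes were called lower, 3.7% higher and 7.87% in either direction. Of the 13530 genes above the median, limma called 1281 lower and 1083 higher. The fall was at least 1 for Tgfb2 alone, and for 0.131% of all genes. The median difference of the 10 genes was 0.02, and that of all genes -0.0060. Against DMSO, 7 genes were lower in the combined group, with Ltbp1 in place of Smad3. Here 16.7% of all genes were called lower, 17.9% higher and 34.5% in either direction. Of the 13530 genes above the median, 3787 were lower and 4162 higher. Of the 7, Tgfb1, Tgfb2, Tgfbr2 and Tgfbr3 were lower by at least 1, as were 2.7% of all genes, and the medians were -0.74 and -0.04. No member was called higher in any of the comparisons by limma over all genes. At an unadjusted p under 0.05 the counts of higher members were 0, 1 and 1, the member being Tgfbr1. Among the 13530 genes above the median, Tgfbr1 was called higher with forskolin and in the combined group against DMSO. A gene was called when limma's p, adjusted over all genes by the Benjamini-Hochberg method, was below 0.05. Differences are given on the log2 scale with limma's standard error and 3 arrays per group. The comparisons share arrays, the thapsigargin arrays being the numerator of the first and the reference of the second. In such bulk RNA, fewer cells expressing a gene and less RNA per cell cannot be told apart.

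**Figure D1:**
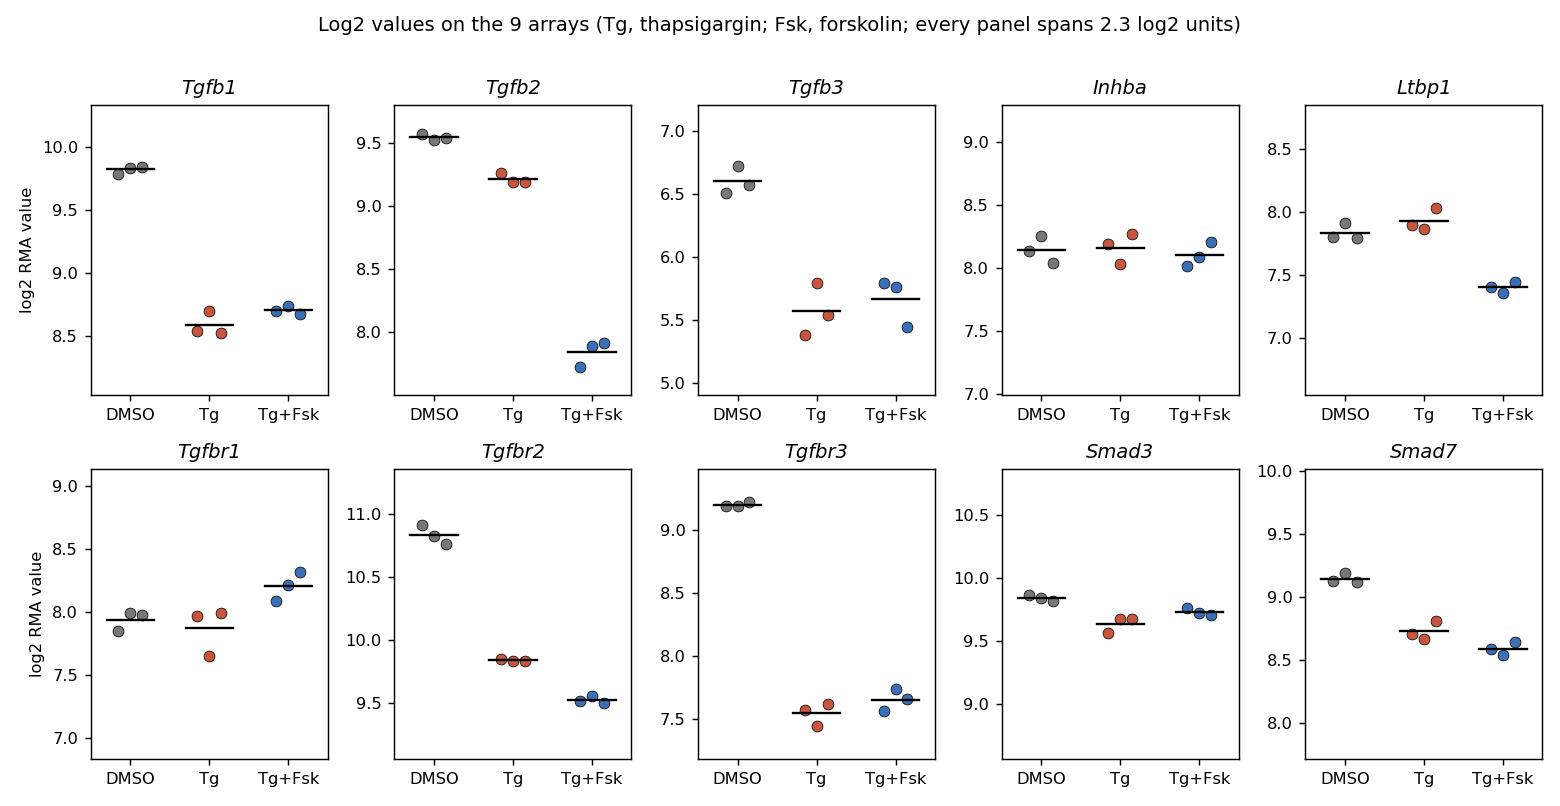
Log2 value of each of the 10 genes on each of the 9 arrays (y axis, log2 RMA value), by group (x axis), with the group mean as a bar. Every panel spans the same range, so the drop of Tgfbr3 by 1.65 with thapsigargin, the drop of Tgfb2 by 1.37 when forskolin was added and the overlapping groups of Inhba can be compared by eye.

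The ligand Tgfb1, a well studied inducer of matrix genes in the kidney, had log2 values of 9.79, 9.84 and 9.84 on the DMSO arrays, 8.54, 8.70 and 8.52 on the thapsigargin arrays and 8.70, 8.74 and 8.68 on the combined arrays. All 6 treated arrays lay below all 3 DMSO arrays, by at least 1.05, and the treated groups overlapped each other. Tgfb1 was 2.35-fold lower with thapsigargin (-1.23 ± 0.06, limma adjusted p = 2.73e-07). It was also lower in the combined group than with DMSO (-1.12 ± 0.06, limma adjusted p = 5.63e-07). Between the treated groups the difference was 0.12 ± 0.06 (95% interval -0.02 to 0.25, limma adjusted p = 0.346).

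Tgfb2, a ligand that binds the type II receptor poorly without the co-receptor betaglycan, followed another course. Its log2 values were 9.57, 9.53 and 9.54 with DMSO, 9.26, 9.19 and 9.19 with thapsigargin, and 7.73, 7.89 and 7.92 in the combined group. No groups overlapped, and the step from thapsigargin to the combined group was wider than the step from DMSO to thapsigargin. Thapsigargin lowered Tgfb2 by 0.33 ± 0.06 (limma adjusted p = 0.00208), and the addition of forskolin lowered it by 1.37 ± 0.06, or 2.59-fold (limma adjusted p = 2.83e-06). That difference was the lowest but 8 of all 22180 genes (rank 9). Against DMSO, Tgfb2 was 3.25-fold lower in the combined group (-1.70 ± 0.06, limma adjusted p = 5.19e-08).

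Tgfb3, a ligand known from palate and lung development, was the one member that did not lie above the upper quartile of every DMSO array. It had log2 values of 6.51, 6.72 and 6.57 with DMSO, 5.38, 5.79 and 5.54 with thapsigargin, and 5.79, 5.76 and 5.44 in the combined group. The treated arrays all lay below the median of all values in the table, 5.84, and whether they stood above background was not checked. Tgfb3 fell by 1.03 ± 0.12 with thapsigargin (limma adjusted p = 0.000117) and was lower by 0.93 in the combined group (-0.93 ± 0.12, limma adjusted p = 0.000249). The treated groups overlapped, with a difference of 0.09 ± 0.12 (95% interval -0.19 to 0.38, limma adjusted p = 0.772).

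Inhba encodes the subunit of activin A, a ligand that signals through other receptors to the same SMADs. Its log2 values were 8.14, 8.26 and 8.04 with DMSO, 8.19, 8.03 and 8.27 with thapsigargin, and 8.01, 8.09 and 8.20 in the combined group. The 3 groups overlapped throughout. The thapsigargin difference was 0.02 ± 0.08 (95% interval -0.17 to 0.21, limma adjusted p = 0.901) and the forskolin difference -0.06 ± 0.08 (95% interval -0.25 to 0.13, limma adjusted p = 0.79). The combined group differed from DMSO by -0.04 ± 0.08 (95% interval -0.23 to 0.15, limma adjusted p = 0.746). The signs of the thapsigargin difference and of the combined group's difference from DMSO turned under some alternatives.

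The changes of the ligands were also compared with each other, as the difference between the log2 values of a gene pair on each array. With forskolin, the log2 change of Tgfb2 was 1.49 below that of Tgfb1 and 1.47 below that of Tgfb3. The array values of the Tgfb2 to Tgfb1 difference ran from -0.98 to -0.76 in the combined group and from 0.49 to 0.72 with thapsigargin. With thapsigargin the order was the opposite, Tgfb1 and Tgfb3 falling more than Tgfb2, by 0.90 and 0.70. For all 4 the exact permutation test (two-sided) gave p = 0.1, which is the lower limit with 3 arrays per group, and 0.12 after adjustment over the 12 such differences computed. The changes of Tgfb1 and Tgfb3 differed by 0.20 with thapsigargin and by 0.02 with forskolin (exact permutation p = 0.2 and 1, adjusted 0.218 and 1).

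**Figure D2:**
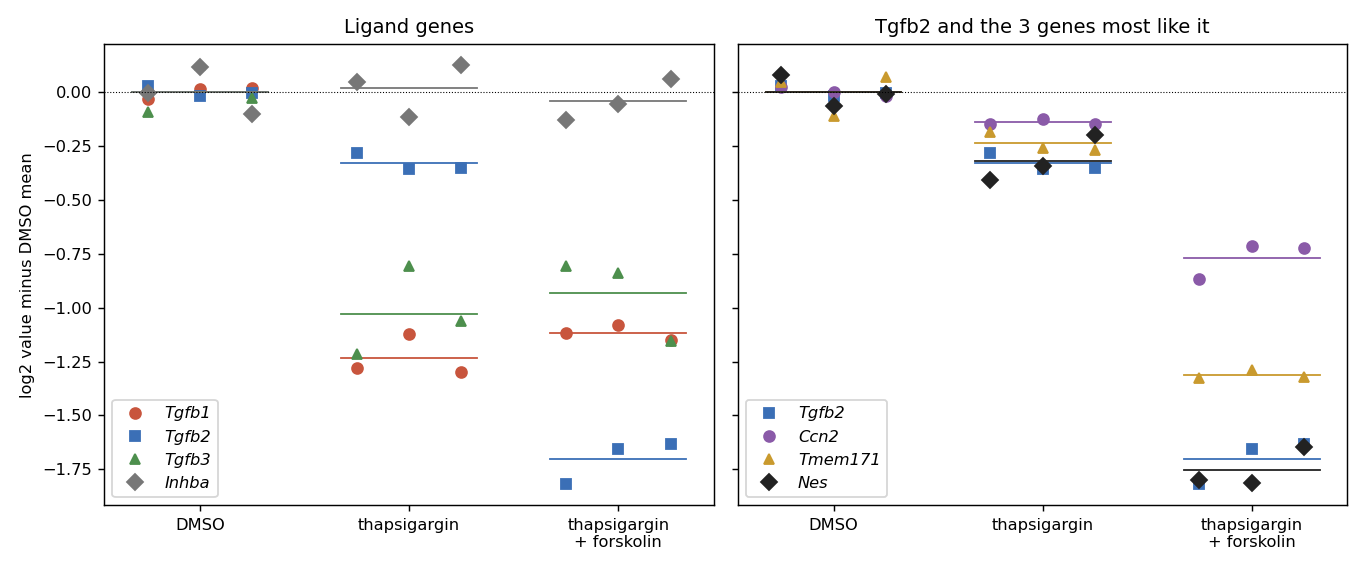
Log2 value minus the DMSO mean (y axis) on each of the 9 arrays, grouped by treatment (x axis), for the ligand genes (left) and for Tgfb2 with the 3 genes whose values followed it most closely (right), with group means as bars. Tgfb1 and Tgfb3 drop between DMSO and thapsigargin, Tgfb2 drops mainly between thapsigargin and the combined group, and Ccn2, Tmem171 and Nes have the same order of groups as Tgfb2.

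Ltbp1 encodes the latent TGF-beta binding protein that tethers the latent ligand to the matrix. It had log2 values of 7.79, 7.91 and 7.79 with DMSO, 7.89, 7.86 and 8.03 with thapsigargin, and 7.40, 7.36 and 7.44 in the combined group. The combined arrays lay below the other 6, while DMSO and thapsigargin arrays overlapped. The thapsigargin difference was 0.10 ± 0.06 (95% interval -0.05 to 0.24, limma adjusted p = 0.299). Forskolin lowered Ltbp1 by 0.53 ± 0.06 (limma adjusted p = 0.00103), rank 189 among the falls of all genes. Against DMSO the combined group was lower by 0.43 (-0.43 ± 0.06, limma adjusted p = 0.000475).

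Because forskolin acts through cAMP, whose factor CREB binds the cAMP response element TGACGTCA or its core TGACG, the promoter windows of the members were searched on both strands. The windows are those of RefSeq on GRCm38.p6, 250 bases before to 50 after an annotated start. In all, 9 windows from 7 of the 10 genes were searched. Tgfb3, Tgfbr3 and Smad7 were not among these. The search of the members passed over any window on the chromosome that carries Smad7, so whether Smad7 had a window was not determined. The shares over all windows, given below, did not leave that chromosome out. The windows of the genes called lower with forskolin are shown for that reason, each 5′ to 3′ on the strand of its gene, with any core in either orientation in capitals:

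Tgfb2, chr1:186705940-186706239, minus strand: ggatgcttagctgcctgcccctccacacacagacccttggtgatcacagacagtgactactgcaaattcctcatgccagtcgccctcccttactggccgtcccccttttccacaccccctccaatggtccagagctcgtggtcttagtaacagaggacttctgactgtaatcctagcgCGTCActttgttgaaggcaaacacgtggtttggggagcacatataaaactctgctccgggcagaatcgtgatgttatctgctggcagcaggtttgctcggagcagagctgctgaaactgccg

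Ltbp1, chr17:75005279-75005578, plus strand: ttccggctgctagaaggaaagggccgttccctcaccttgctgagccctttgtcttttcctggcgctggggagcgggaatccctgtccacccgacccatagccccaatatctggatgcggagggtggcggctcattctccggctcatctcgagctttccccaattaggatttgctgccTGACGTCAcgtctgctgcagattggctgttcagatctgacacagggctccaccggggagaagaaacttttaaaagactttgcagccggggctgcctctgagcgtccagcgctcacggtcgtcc

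Tgfbr2, chr9:116175314-116175613, minus strand: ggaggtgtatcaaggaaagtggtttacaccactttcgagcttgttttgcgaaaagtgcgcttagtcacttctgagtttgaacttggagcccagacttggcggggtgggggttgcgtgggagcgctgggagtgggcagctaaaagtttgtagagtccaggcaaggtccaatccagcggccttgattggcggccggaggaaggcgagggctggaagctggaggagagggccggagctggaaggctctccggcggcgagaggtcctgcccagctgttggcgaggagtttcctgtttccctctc

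The Tgfb2 window held 1 core, read on the opposite strand, from base -72 relative to the start, and a TATAAA box from base -31. The first Ltbp1 window held the full element from base -73, which contains the core on both strands. The Tgfbr2 window, the second Ltbp1 window and the windows of Tgfb1, Tgfbr1, Smad3 and Inhba held none. Among all 32851 promoter windows of that length, 20.8% held the core and 1.79% the full element. The TATAAA box was in 13.6% of them, and among the members also in the Inhba window, from base -91. The members' windows searched held no ER stress element, CCAAT with CCACG after 9 bases (0.119% of all windows). They also held no unfolded protein response element TGACGTGG (0.676%) and no SMAD palindrome GTCTAGAC (0.213%). No window of Tgfb3, Tgfbr3 or Smad7 was searched for any motif. These matches describe letters in a window and say nothing of binding.

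The receptors differed among themselves. Tgfbr2, the type II receptor that binds ligand first, had log2 values of 10.92, 10.82 and 10.76 with DMSO, 9.85, 9.83 and 9.84 with thapsigargin, and 9.52, 9.56 and 9.50 in the combined group. The 3 groups did not overlap, and each treatment step was downward. Thapsigargin lowered Tgfbr2 by 0.99 ± 0.05, or 1.99-fold (limma adjusted p = 5.62e-07). Forskolin lowered it by a further 0.32 ± 0.05 (limma adjusted p = 0.00682), so that it was 2.48-fold lower in the combined group than with DMSO (-1.31 ± 0.05, limma adjusted p = 1.18e-07).

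Tgfbr3 encodes betaglycan, the co-receptor that presents TGF-beta2 to the type II receptor. It had log2 values of 9.19, 9.19 and 9.22 with DMSO, 7.57, 7.44 and 7.62 with thapsigargin, and 7.56, 7.74 and 7.66 in the combined group. All treated arrays lay at least 1.45 below the DMSO arrays, and the treated groups overlapped. Its 3.14-fold fall with thapsigargin (-1.65 ± 0.07, limma adjusted p = 8.42e-08) was the largest of the 10 genes in that comparison and rank 182 of all genes. The combined group was lower than DMSO by a similar amount (-1.55 ± 0.07, limma adjusted p = 1.35e-07), and the forskolin difference was 0.11 ± 0.07 (95% interval -0.04 to 0.26, limma adjusted p = 0.449).

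Tgfbr1, the type I receptor kinase that phosphorylates the SMADs, was not called in any comparison. Its log2 values were 7.85, 7.99 and 7.98 with DMSO, 7.97, 7.65 and 7.99 with thapsigargin, and 8.09, 8.21 and 8.31 in the combined group. The combined arrays lay above the other 6, and thapsigargin replicate 2 was the lowest. The forskolin difference was 0.33 ± 0.10 (limma adjusted p = 0.0876) and the combined group differed from DMSO by 0.27 ± 0.10 (limma adjusted p = 0.0709). In 3 of 19 alternatives the forskolin difference was called, with a lowest adjusted p of 0.04 in limma with an intensity trend. In 4 the difference from DMSO was, with the lowest, 0.0246 in limma, when thapsigargin replicate 2 was left out. The thapsigargin difference was -0.07 ± 0.10 (95% interval -0.29 to 0.16, limma adjusted p = 0.658).

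Relative to Tgfbr1 on the same arrays, Tgfbr2 and Tgfbr3 fell with thapsigargin by 0.92 and 1.58. With forskolin Tgfbr2 moved 0.65 below Tgfbr1 and Tgfbr3 moved 0.23 below it. Tgfbr3 fell by 0.66 more than Tgfbr2 with thapsigargin and, with forskolin, the difference between them closed by 0.42. All 6 had p = 0.1 in the exact permutation test (two-sided), again the lower limit, and an adjusted p of 0.12.

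Smad3, the SMAD that the type I receptor activates, had log2 values of 9.87, 9.85 and 9.82 with DMSO, 9.57, 9.67 and 9.68 with thapsigargin, and 9.76, 9.73 and 9.70 in the combined group. The groups did not overlap, though they lay close together, with the combined arrays between the others. Smad3 fell by 0.20 ± 0.05 with thapsigargin (limma adjusted p = 0.0125), the smallest change called among the members, and without thapsigargin replicate 1 the value was -0.17 and was not called (limma adjusted p = 0.0545). The combined group differed from thapsigargin by 0.09 ± 0.05 (95% interval -0.03 to 0.21, limma adjusted p = 0.405) and from DMSO by -0.11 ± 0.05 (95% interval -0.23 to 0.0062, limma adjusted p = 0.137).

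Smad7, the inhibitory SMAD that is itself induced by TGF-beta and blocks the type I receptor, had log2 values of 9.13, 9.19 and 9.12 with DMSO, 8.70, 8.67 and 8.81 with thapsigargin, and 8.59, 8.54 and 8.64 in the combined group. The values stepped down from group to group without overlap. It fell by 0.42 ± 0.06 with thapsigargin (limma adjusted p = 0.000294), and the combined group was lower than DMSO by 0.55 (-0.55 ± 0.06, limma adjusted p = 4.71e-05). The forskolin difference of -0.14 ± 0.06 was not called (95% interval, not adjusted, -0.27 to -0.0066, limma adjusted p = 0.236).

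**Figure D3:**
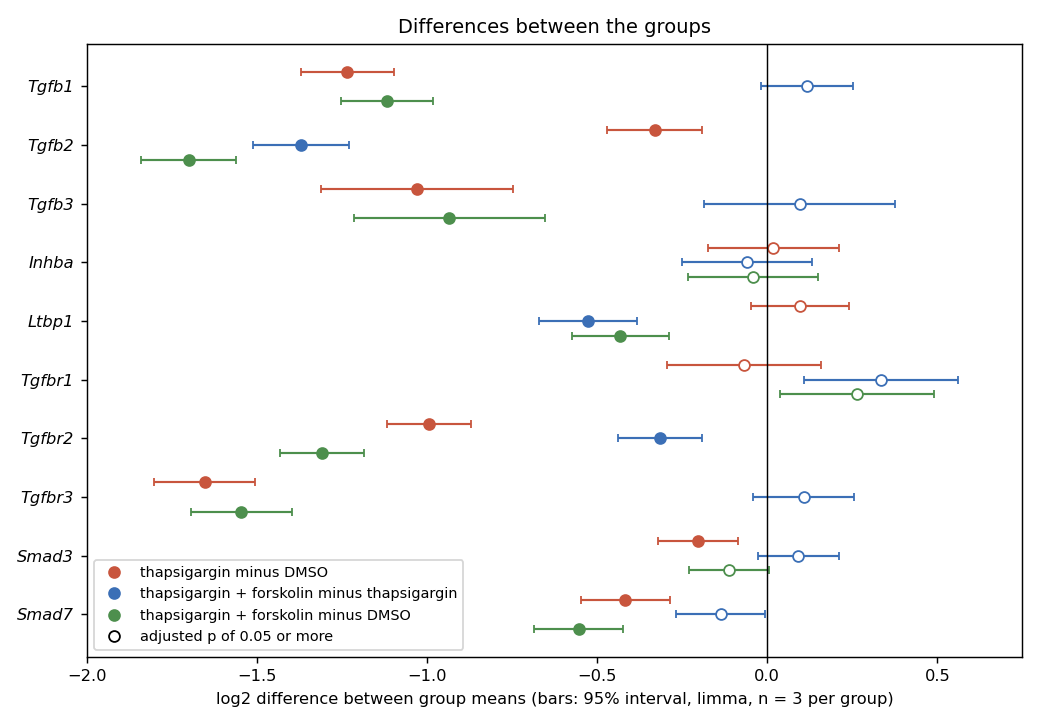
Log2 difference between group means (x axis) for each gene (y axis) in the 3 comparisons, with unadjusted 95% intervals from limma and open points where the adjusted p was 0.05 or more. The filled points all lie below 0, and Tgfb2, Ltbp1 and Tgfbr2 are the members with a filled forskolin point.

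Counted by whether groups overlapped, 7 members were lower without overlap with thapsigargin, where 22.3% of all genes were, and 0 were higher (21.6% of all, 43.9% in either direction). With forskolin 4 were lower (14% of all genes) and 2 higher (12.1%, and 26.1% in either direction), and against DMSO 8 were lower in the combined group (21.2%) and 1 higher (21.4%, and 42.6% in either direction). The SD within a group of 3 arrays lay between 0.01 and 0.21 over the members.

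For the 5 members that changed by at least 1 in a comparison, the genes with the most similar log2 values over the 9 arrays were sought. The search covered 12407 genes with at least 1 group mean over the median level of the table. Members and predicted or clone names were left out of it. These correlations describe 3 groups of arrays, so they mostly measure the order and spacing of the group means. Tgfb2 was followed most closely by Ccn2, which encodes a matricellular growth factor (r = 0.997 over 9 arrays), Tmem171 and Nes, which encodes the intermediate filament protein nestin and is also a podocyte marker (r = 0.996 and 0.994). The forskolin differences of these were -0.63, -1.07 and -1.43. Tgfb1 was nearest to Pfn2, a profilin gene, Tmem176a and Slc25a1, the mitochondrial citrate carrier gene (r = 0.998 for each), and Tgfb3 to Eogt, Vwa7 and Cox8a (r from 0.989 to 0.990). Tgfbr2 was nearest to Cryab, Ifi30 and Rai14 (r = 0.999 for each), and Tgfbr3 to Plac8, Gpx8 and Arvcf (r = 0.999 for each).

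Genes whose products hold or release latent TGF-beta were lower with thapsigargin in most cases. Of 19 measured, limma called 13 lower and 0 higher (0 also at an unadjusted p under 0.05), against 16.9% and 18.2% of all genes, with a median of -0.56. Bgn and Fmod, small proteoglycans that bind TGF-beta, changed by -1.62 and -1.52, and Mmp14, a membrane metalloprotease, by -1.40. With forskolin 3 rose and 2 fell. Pcsk5, a proprotein convertase gene, rose by 1.52 ± 0.07 (limma adjusted p = 2.05e-06), while Ltbp4, a relative of Ltbp1, fell by 0.57. Dcn, the decorin gene, rose by 0.37 from values near the lower quartile of the arrays. In the combined group 14 were lower than with DMSO and 1 was higher, Pcsk5.

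Among 23 other ligands of the superfamily, 6 fell and 1 rose with thapsigargin, where 35% of all genes were called, and the median was -0.09 against -0.04 over all genes. The bone morphogenetic protein genes Bmp4 and Bmp3 changed by -2.41 and -2.27, more than any of the 10 members, and Gdf11 by -1.04. With forskolin Bmp2 changed by -0.82, Bmp6 by -0.40 and Bmp3 by 0.48, among 2 that rose and 3 that fell. In the combined group 6 were lower than with DMSO, Bmp4 by 2.53 (log2 difference -2.53), and 0 higher by limma (0 also at an unadjusted p under 0.05).

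Other receptors and SMADs were called in both directions with thapsigargin, as were all genes (16.9% lower, 18.2% higher). Of 11 other receptors 3 fell and 2 rose, Acvr1b, an activin type I receptor, by -1.02 and Acvr1, a BMP type I receptor, by 0.71. With forskolin 0 of the 11 were called by limma, and 1 was higher and 0 lower at an unadjusted p under 0.05. Of 6 other SMADs 2 fell and 2 rose with thapsigargin: Smad9 and the inhibitory Smad6 changed by -1.003 and -0.80, and Smad1, which serves BMP receptors, by 0.36. Smad9 and Smad6 rose with forskolin by 0.65 and 0.46. Against DMSO 2 of the 11 receptors were lower and 2 higher in the combined group, and 1 of the 6 SMADs was lower and 2 higher.

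Of 21 inhibitors and modulators of the pathway, 7 rose and 4 fell with thapsigargin, against 18.2% and 16.9% of all genes, with a median of 0.04. Of the 13530 genes above the median level, 4237 rose and 3832 fell. Fst, which encodes the activin antagonist follistatin, fell 8.56-fold (-3.10 ± 0.06, limma adjusted p = 2.04e-09). The adaptor gene Dab2 changed by -1.05 and Zfyve9, which encodes the SMAD anchor SARA, by 0.96. With forskolin Pmepa1, a feedback inhibitor induced by TGF-beta, fell by 0.58, and the ubiquitin ligase gene Nedd4l and Dab2 rose by 0.43 and 0.37. Pmepa1 had 9.82, 9.79 and 9.61 with DMSO and was higher with thapsigargin, at 10.16, 10.21 and 10.19. In the combined group it had 9.50, 9.65 and 9.67, which overlapped DMSO. In the combined group 7 were lower than with DMSO and 6 higher, among them Fst at -3.07, and Ppm1a, a SMAD phosphatase gene, at 0.93.

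Genes known as targets of TGF-beta or BMP signalling were counted last. Of 28 measured, 13 fell and 3 rose with thapsigargin, against 16.9% and 18.2% of all genes, with a median of -0.16. Id1, a target of BMP signalling, changed by -1.36, the actin-binding protein gene Tagln by -1.11 and the cell cycle inhibitor gene Cdkn2b by -1.07. With forskolin 10 fell and 5 rose, against 4.17% and 3.7% of all genes, with a median of -0.10 against -0.0060 over all genes. The largest changes called were falls, of Lox at -1.90, Tagln at -1.18 and Acta2 at -1.16. Id1, Id2 and Id3 went the other way, each higher on all combined arrays than on all thapsigargin arrays. Id3 had 10.16, 10.20 and 10.20 with thapsigargin and 11.02, 11.04 and 11.15 in the combined group. In the combined group 19 were lower than with DMSO and 2 higher. Many of these genes answer to other signals too, and the members and this list were not tested for a link.

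**Figure D4:**
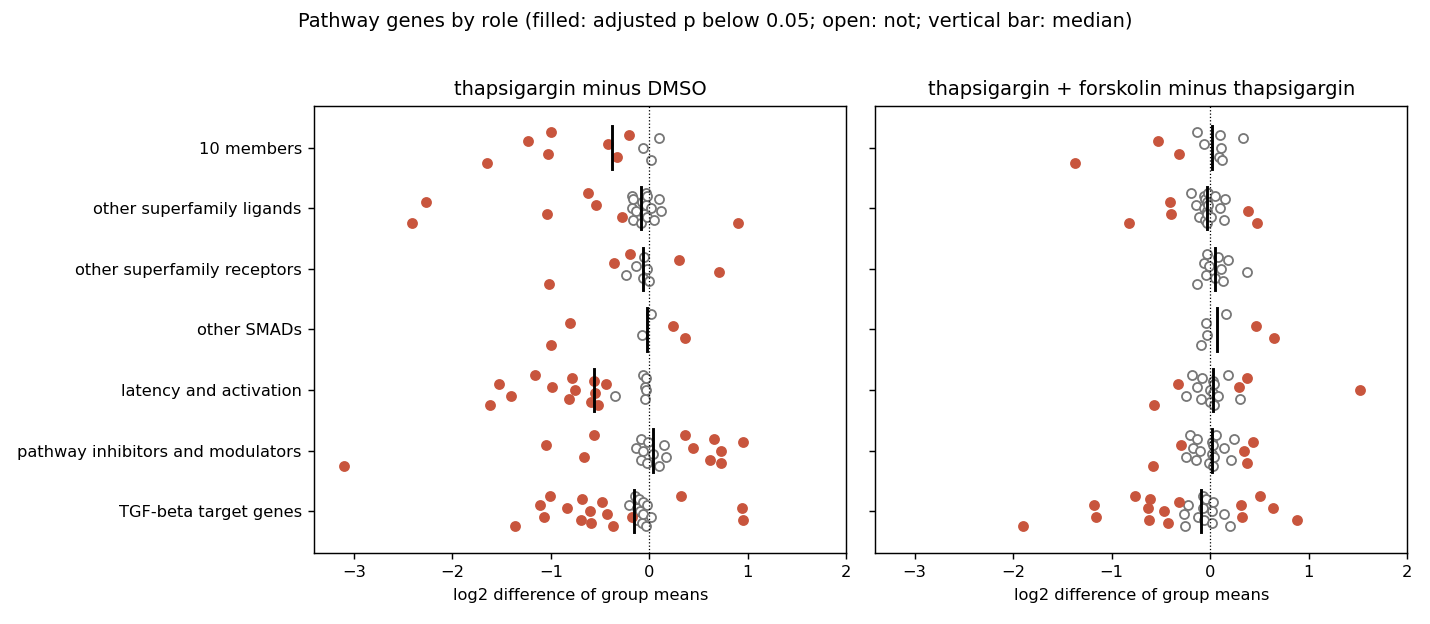
Log2 differences (x axis) of the 10 genes and of 6 lists of related genes (y axis) for thapsigargin against DMSO (left) and for the combined group against thapsigargin (right), 1 point per gene, filled where called, with the median as a bar. The medians of the latency and activation list and of the 10 genes, -0.56 and -0.37, lie furthest to the left in the first comparison, and all medians lie near 0 in the second.

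The arrays of a group correlated at r of 0.989 to 0.993 over all 41345 probe sets, and arrays of different groups at 0.966 to 0.992. Of 15 podocyte markers measured, 8 lay above the upper quartile of every DMSO array, among them Synpo and Podxl. Nphs1, the nephrin gene that defines podocytes, had DMSO values of 6.54, 6.71 and 6.38, between the quartiles. Thapsigargin lowered 7 of these markers and raised 3, and forskolin lowered 6 and raised 2. In the combined group 7 of these markers were lower than with DMSO and 2 higher. Their mean ran from 8.40 to 8.47 with DMSO, 7.96 to 7.98 with thapsigargin and 7.71 to 7.75 in the combined group. Of all genes, 16.9%, 4.17% and 16.7% were called lower in the 3 comparisons, and 18.2%, 3.7% and 17.9% higher. Markers of other cells are counted below beside those shares. The mean over 12 tubular markers ran from 7.005 to 7.10 with DMSO, 6.30 to 6.38 with thapsigargin and 6.30 to 6.44 in the combined group, with 4, 0 and 3 markers lower in the 3 comparisons and 0, 1 and 0 higher. That over 7 mesangial and pericyte markers ran from 7.06 to 7.11, 6.71 to 6.78 and 7.09 to 7.23, with 2, 0 and 1 lower and 0, 2 and 1 higher. The means over 9 endothelial markers lay between 5.92 and 6.19 and those over 9 leukocyte markers between 5.88 and 6.21 on all arrays, with 2, 1 and 2 endothelial markers lower and 0 higher, and 2, 0 and 1 leukocyte markers lower and 0, 2 and 1 higher. Above the upper quartile of every DMSO array lay the tubular markers Cdh16, Aqp1 and Lrp2, the mesangial and pericyte markers Pdgfrb and Mcam, the endothelial marker Ehd3 and the leukocyte markers Cd68, Csf1r and Cd14. The endothelial marker Emcn and the leukocyte marker Ptprc lay below the lower quartile of every array. The part of these markers in the changes of the 10 genes was not tested.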

How the data were processed

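RNA from mouse podocytes in culture was hybridised to 9 arrays of 1 colour. The authors deposited log2 values per probe set. According to the submitters' processing notes these came from affy and RMA, which adjusts background, makes the arrays' distributions alike and summarises probes, so a change in total RNA per cell is not visible. Software versions and the build were not given in the sources used here, and signal over background was not checked.

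Of 41345 probe sets, 23521 carried 1 gene symbol in the platform annotation, 1814 several and 16010 none. Symbols were compared with RefSeq through Entrez IDs (23328 matched, 0 changed). Where a gene had several such probe sets, the one of highest mean was used. Group means were fitted to all arrays with limma 3.58.1 (R 4.3.3; 6 residual degrees of freedom), and p-values were adjusted over 22180 genes. The fit was tried on simulated data with independent noise and far fewer changed genes than were called here. That trial does not cover structure shared between arrays. Figures were drawn with matplotlib 3.10.9. The number of arrays limits the precision.

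Genes named were the members, up to 3 called genes with the largest change per list and comparison (where none was called, the one with the highest mean), the 3 genes correlating best with each member that changed by at least 1, and markers cited for the cell type check. Pcsk5 against DMSO, the Id genes with forskolin and the array values of Pmepa1 were given outside this rule, after they were seen. The members and lists were chosen with earlier results of these data known. Alternatives were 10 other fits, scalings, filters, thresholds and probe set choices, and leaving out each of the 9 arrays.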

Additional observations from a re-analysis of the deposited data

How the results depend on the processing

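The 3 counts of called members kept to within 1.5 times of 7, 3 and 7 under all alternatives except limma's treat against a log2 change of 0.5, which called 4 and 1 in the first and second comparison. Leaving out each array in turn gave 6 to 7 members with thapsigargin against DMSO, 3 with forskolin added, and 7 to 8 for the combined group against DMSO. A block for replicate number gave counts of 7, 3 and 7. Whether the numbers pair the arrays was not settled. Of 9 same-numbered pairs, 4 had deviations from their group means correlating above 0.1 (-0.07 to 0.25). Pairs of different number ran from -0.30 to 0.25. The falls of Tgfb1, Tgfb3, Tgfbr2 and Tgfbr3 with thapsigargin and of Tgfb2 with forskolin were called in all 19 alternatives. Not all 19 could change these differences. Averaging or choosing probe sets left the members' values as they were, since each had 1 probe set. Leaving out an array of the group not compared altered only the estimate of the spread. The thapsigargin difference of Inhba, not called, turned to -0.020 with array weights and -0.059 after quantile normalization, and ranged from -0.035 to 0.085 with an array left out. Likewise that of Tgfbr1 ranged from -0.13 to 0.040, and the difference of Inhba between the combined group and DMSO from -0.095 to 0.014. Tgfbr1 was called higher with forskolin in 3 alternatives and against DMSO in 4, and Smad3 lower in the combined group after quantile normalization (-0.17, limma adjusted p = 0.0369). The causes were not tested. Scaling moved the median of all genes by at most 0.038. Signal over background is unknown here for all members.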
